A study of Saccharomyces cerevisiae with 6 samples.

Results

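The genes described here are 45 cytosolic chaperones and co-chaperones of budding yeast, chosen by name for their known role in protein folding. They fall into 12 groups by role: the SSA Hsp70s, the ribosome-bound Hsp70 system, the nucleotide exchange factors and the J-proteins of Hsp70, Hsp90, the Hsp90 co-chaperones, the disaggregase Hsp104, the small heat shock proteins, the sorting factors Btn2 and Cur1, the chaperonin CCT, prefoldin, and the transcription factor Hsf1, which controls many of the others. All 45 were among the 7127 features counted, and all 45 passed the filter on low counts that 6755 features passed.

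Hsp70 binds short hydrophobic stretches of unfolded chains in a cycle driven by ATP. J-proteins bring it clients and start ATP hydrolysis, and nucleotide exchange factors release the client. Hsp90 acts later, on folding intermediates of kinases, receptors and other clients, with co-chaperones that set the pace of its own ATP cycle. Hsp104 pulls proteins out of aggregates together with Hsp70, and small heat shock proteins gather misfolded proteins into deposits. CCT is a double ring that folds actin and tubulin, and prefoldin delivers these chains to it. Separate transcription programmes reach many of these genes in yeast, through Hsf1 at heat shock elements and through Msn2 and Msn4 at stress response elements.

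Poly(A) RNA from 3 libraries of young cells and 3 of aged cells was compared. All came from the prototrophic strain CGY4.51, whose genotype is given as MAT@, grown in synthetic complete medium with glucose. Young cells (library names WT log 1 to 3) were taken from exponential growth, and aged cells (WT 24h 1 to 3) after 24 h in a ministat aging device, in which bead-bearing mother cells are held while flowing medium carries daughters away. Age and culture system therefore cannot be told apart. Libraries are labelled biological replicates, and a batch label of 1, 2 or 3 equals the replicate number in both groups.

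Library totals ranged from 29230292 to 41650202 estimated counts. The α-pheromone gene MF(ALPHA)1 stood at 2705 CPM (counts scaled to library size) or more in every library, while MFA1, MFA2, STE2 and BAR1, the a-cell markers, together reached only 18.6 to 25.5 CPM, so the expression pattern is that of α haploid cells. Of 10 genes specific to daughter cells, 6 rose and 0 fell in aged libraries (32.7% and 30.8% of all features did so), none was at 0, and their summed level was 1187 to 1274 CPM in young and 1414 to 1552 CPM in aged libraries. The part of daughter cells in the differences given here was not tested. Fewer cells that express a gene and less RNA per cell cannot be told apart in bulk RNA.

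The chaperone network did not move as a unit. In aged cells 19 of the 45 mRNAs were higher and 19 were lower (edgeR, adjusted p under 0.05 over all features), against 32.7% higher and 30.8% lower among all features tested. The 7 that did not pass the test were SSA1, SSZ1, YDJ1, HSP82, AHA1, CNS1 and CCT5. The members' median log2 fold change of 0.01 lay beside a median of 0.02 over all features. Every aged library lay above every young library for 19 members and below for 20, where 36.3% and 33.8% of all features did so. What differed was which members rose. The small heat shock proteins, SSA3 and SSA4, HSP104 and 7 of 8 CCT subunits were higher, while all 6 prefoldin subunits, HSC82, SSA2 and most Hsp90 co-chaperones were lower.

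Fold changes here are relative to the bulk of genes, since libraries were scaled by the trimmed mean of M-values (TMM). Scaled by total counts only, the median of all features moved to 0.54, and 27 members were higher and 9 lower (68.7% and 8.32% of all features). With an offset for GC content, 15 were higher and 23 lower (29% and 32% of the 5925 tested features that this offset covers). The members took 1.12% to 1.29% of all counts in young and 1.35% to 1.46% in aged libraries, yet their summed TMM-scaled level was 14214 to 14686 CPM in young and 11514 to 11772 CPM in aged libraries, so the direction of the sum depends on the scaling.

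**Figure D1:**
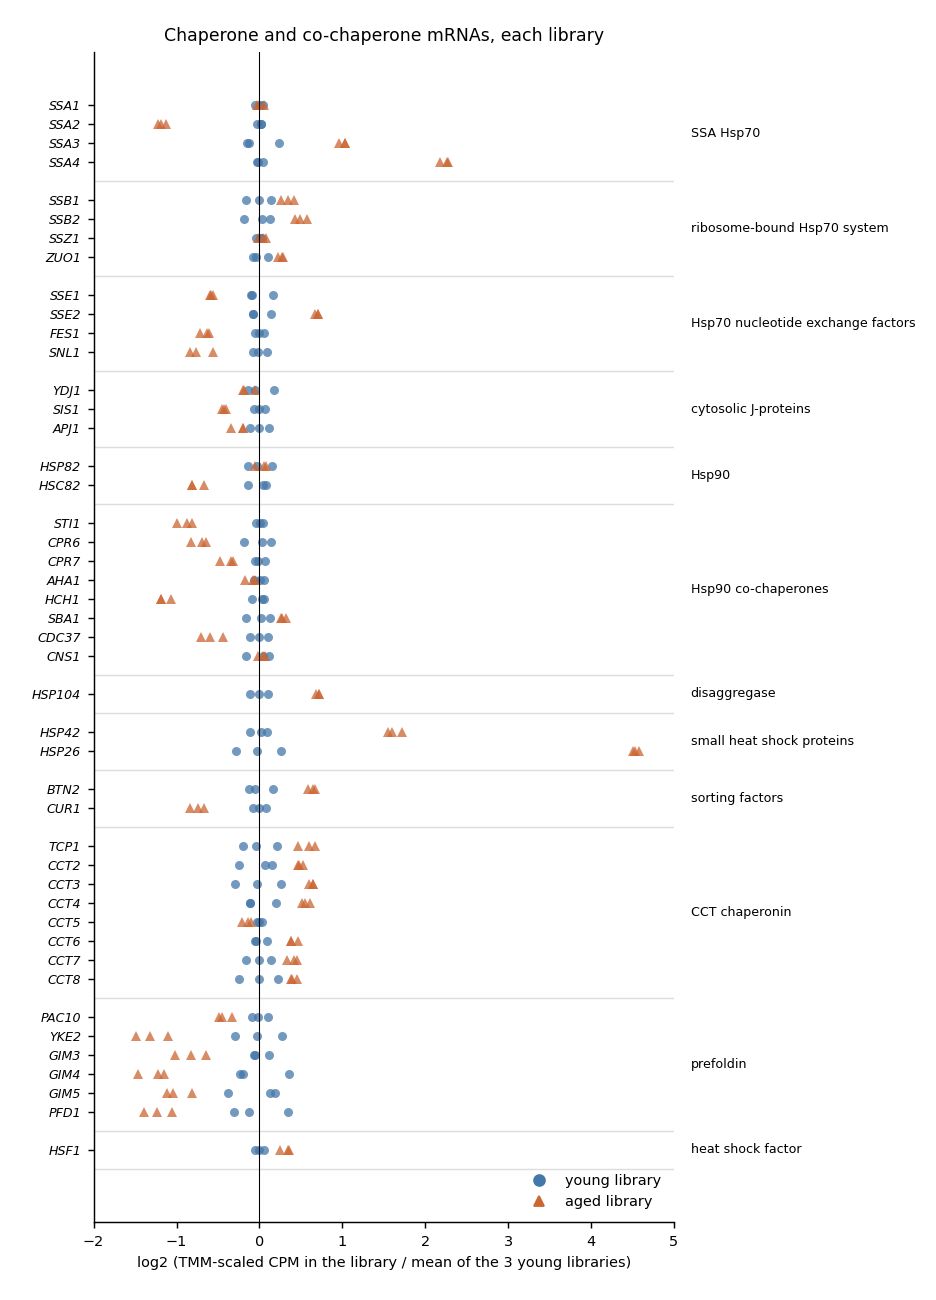
Level of each of the 45 mRNAs in each of the 6 libraries, as log2 of its TMM-scaled CPM over the mean of the 3 young libraries. Circles are young and triangles aged libraries, grouped by role. HSP26, SSA4 and HSP42 sit farthest to the right and most prefoldin subunits, SSA2 and HCH1 farthest to the left.

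Upstream sequences of some members carry these elements. Excerpts are shown because members that rose and members that fell both bear the heat shock element. The 4 members with 3 stress response elements all rose. Of the members with 2, SNL1 and APJ1 fell, and SSA1 and HSP82 did not pass the test. In the 500 bases before the start codon (RefSeq, assembly R64), the heat shock element was searched as GAANNTTCNNGAA or TTCNNGAANNTTC, which covers both strands. Only exact matches were counted, so heat shock elements with a mismatch or a gap between units would be missed. It was found upstream of 10 of 45 members (22.2%) and of 89 of 6006 genes in all (1.48%). The stress response element, AGGGG or CCCCT, was found upstream of 12 of 45 members (26.7%) and of 2047 of 6006 genes (34.1%). The patterns can share no more than an end base. Excerpts with the heat shock element in capitals, read 5′ to 3′ on the coding strand, are as follows for members that fell (SSA2, SIS1, STI1), that rose (HSP104, HSP42, BTN2) or that did not pass the test (SSA1).
SSA2: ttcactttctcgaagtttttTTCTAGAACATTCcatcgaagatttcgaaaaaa
SIS1: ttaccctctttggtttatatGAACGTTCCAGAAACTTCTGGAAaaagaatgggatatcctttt
STI1: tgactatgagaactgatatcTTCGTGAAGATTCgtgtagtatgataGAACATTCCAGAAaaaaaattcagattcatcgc
HSP104: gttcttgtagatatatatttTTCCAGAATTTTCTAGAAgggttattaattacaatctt
HSP42: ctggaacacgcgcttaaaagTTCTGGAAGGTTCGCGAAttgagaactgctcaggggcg
BTN2: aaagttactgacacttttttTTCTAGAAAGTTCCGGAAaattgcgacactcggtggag
SSA1: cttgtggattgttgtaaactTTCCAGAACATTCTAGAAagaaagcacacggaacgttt

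They lie at chrXII:97686-97738 (minus strand) for SSA2, chrXIV:619867-619929 (minus) for SIS1, chrXV:380791-380869 (plus) for STI1, chrXII:88301-88358 (plus) for HSP104, chrIV:806358-806415 (plus) for HSP42, chrVII:772090-772147 (plus) for BTN2 and chrI:141758-141815 (minus) for SSA1. The excerpts of SIS1, SSA1, HSP104, HSP42 and BTN2 run through more than 1 overlapping match. With the stress response element in capitals, the 4 members whose window held 3 elements are shown next, all of which rose, together with HSP82, which did not pass the test. The excerpts of SSA4 and HSP26 show 2 of their 3 elements and that of HSP82 shows 1 of 2.
SSA4: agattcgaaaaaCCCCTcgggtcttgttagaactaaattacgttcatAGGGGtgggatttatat
HSP104: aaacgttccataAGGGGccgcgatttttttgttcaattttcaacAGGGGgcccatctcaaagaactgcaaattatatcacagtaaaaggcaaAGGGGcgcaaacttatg
HSP42: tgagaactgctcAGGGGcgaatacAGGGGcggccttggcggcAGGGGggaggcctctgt
HSP26: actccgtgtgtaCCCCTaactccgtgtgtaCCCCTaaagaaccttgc
HSP82: tccttccgccacCCCCTaaaacatataaa

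These are chrV:364110-364173 (plus) for SSA4, chrXII:88359-88467 (plus) for HSP104, chrIV:806397-806455 (plus) for HSP42, chrII:381539-381585 (plus) for HSP26 and chrXVI:98758-98786 (minus) for HSP82. Of 7 members with the heat shock element and no stress response element, SSA2, SSE1, FES1, SIS1 and STI1 were lower in aged cells, BTN2 was higher and AHA1 did not pass the test. Among all 59 tested genes of that class, 25.4% were higher and 37.3% lower. Of the 88 tested genes with any heat shock element match, 34.1% were higher and 35.2% lower, with a median log2 fold change of −0.007. SSA1, HSP104 and HSP42 had both elements. HSP104 and HSP42 were higher, as were 51.7% of the 29 tested genes with both, of which 31.0% were lower. A further 9 members had the stress response element and no exact match of the heat shock element. Of these, SSA4, SSE2, SBA1, HSP26 and CCT2 were higher and SNL1, APJ1 and GIM4 lower. Among 1983 tested genes of that class, 42.5% were higher and 24.4% lower. Of the 110 tested genes with 3 or more stress response elements, 60.9% were higher and 11.8% lower, and their median log2 fold change was 0.51. A match of letters is a description, and binding was not measured. A gene without a match may still hold a heat shock element of another form, which was not searched for.

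**Figure D2:**
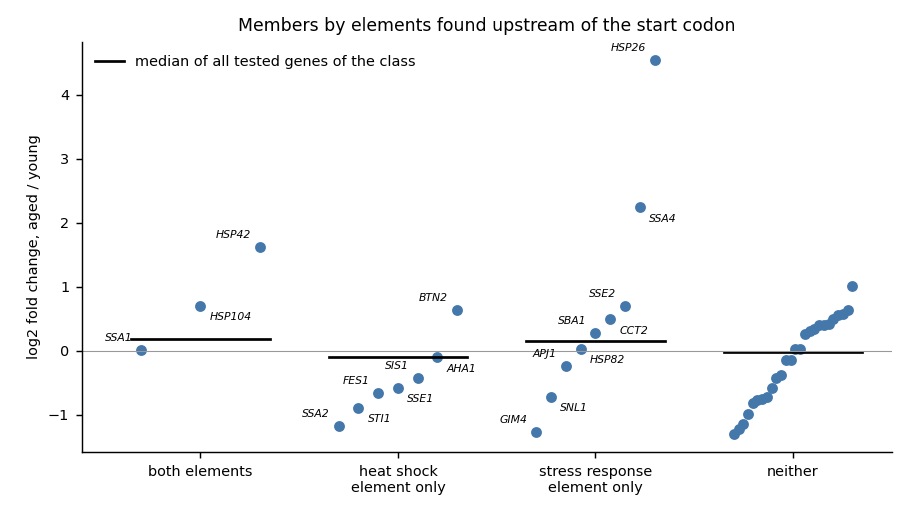
Log2 fold change (aged over young) of the 45 members by which element was found in the 500 bases upstream of the start codon. Each point is a gene, and the horizontal bar is the median of all tested genes of the class (0.18, −0.10, 0.15 and −0.01 from left to right). HSP26, SSA4 and HSP42, the 3 highest, all have stress response elements, as do SNL1, APJ1 and GIM4, which fell. Most members with only an exact heat shock element match lie under 0, and inexact heat shock elements were not searched for.

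The 4 SSA genes encode the general cytosolic Hsp70s, SSA1 and SSA2 being expressed in growing cells and SSA3 and SSA4 chiefly under stress. SSA2 was at 1248, 1209.9 and 1249 CPM in young libraries 1 to 3 and at 543, 529 and 567 CPM in aged libraries 1 to 3. The groups did not overlap, and SSA2 fell by 1.18 on the log2 scale (SE 0.083, adjusted p = 2.2e-06). SSA1 was at 529, 495 and 512 CPM in young and 509.5, 502 and 532 CPM in aged libraries. These values overlapped, with a log2 fold change of 0.01 and a 95% interval from −0.17 to 0.18, although SSA1 fell by 0.22 with the GC offset (adjusted p = 0.033) and stood at 0.52, called higher, with total counts only (adjusted p = 0.00058).

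SSA4 rose from 39.6, 38.2 and 37.7 CPM to 175, 185 and 186 CPM, a log2 fold change of 2.24 (SE 0.071, adjusted p = 5.2e-09). SSA3 rose from 20.8, 16.1 and 16.0 CPM to 34.3, 35.9 and 36.0 CPM, a log2 fold change of 1.01 (SE 0.10, adjusted p = 2.7e-05). In both genes every aged library was above every young library. Both stayed called as higher with total counts only, a setting that called 68.7% of all features higher. SSA1 and SSA2 share 96.8% of aligned coding bases, with an identical run of 383 bases, and 35.6% of stretches as long as a 150-base read occur unchanged in both, so their reads could be split between them in counting. SSA3 and SSA4 share 77.6%, with no identical stretch of read length.

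As shares of the SSA counts, which no scaling changes, SSA2 went from 68.5% ± 0.495 to 42.7% ± 0.446 (SD, n = 3) and SSA1 from 28.4% ± 0.345 to 40.3% ± 0.142. SSA4 went from 2.14% ± 0.050 to 14.2% ± 0.499. SSA3 stayed the least abundant of the 4, at 0.976% ± 0.137 and 2.77% ± 0.087. Summed over the 4 genes, the level was 1759 to 1837 CPM in young and 1252 to 1321 CPM in aged libraries, but as a share of all counts it overlapped, at 0.1345% to 0.1646% and 0.1434% to 0.1635%.

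SSB1, SSB2, SSZ1 and ZUO1 form the Hsp70 system that meets nascent chains at the ribosome exit. SSB1, SSB2 and ZUO1 rose, where 32.7% of all features did so, and SSZ1 did not pass the test. SSB2 was at 586, 473 and 549 CPM in young and 755, 723 and 795 CPM in aged libraries, a log2 fold change of 0.50 (SE 0.099, adjusted p = 0.0013). SSB1 was at 602, 489 and 546 CPM against 692, 653 and 727 CPM (0.34, SE 0.098, adjusted p = 0.011). The aged libraries were above the young ones in both, and young replicate 2 was the lowest of the 6. SSB1 and SSB2 are 97.4% identical, so the reads of this pair could also be split.

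ZUO1, the J-protein partner, rose by a log2 fold change of 0.26 (SE 0.078, adjusted p = 0.015). SSZ1, the atypical Hsp70 that pairs with it, had a log2 fold change of 0.03 with an interval from −0.13 to 0.20. With total counts only SSZ1 stood at 0.55 and was called higher. The call for ZUO1 was lost without young replicate 3 (adjusted p = 0.059) and without aged replicate 1 (0.064). With the GC offset only SSB2 of this group stayed called, SSB1 standing at 0.13 and ZUO1 at 0.02. The nascent polypeptide-associated complex, which also sits at the exit, went the other way. EGD1, EGD2 and BTT1 were all lower, where 30.8% of all features fell. EGD1 fell by 0.84 on the log2 scale (adjusted p = 0.00017), although with total counts only EGD2 stood at 0.03 and BTT1 at 0.00. The part of coding length in this contrast was not tested.

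Of the nucleotide exchange factors, which open Hsp70 for a new ATP, 3 fell and SSE2 rose (30.8% and 32.7% of all features). SSE1, the main Hsp110, was at 863, 1037 and 867 CPM in young and 611, 618 and 627 CPM in aged libraries (log2 fold change −0.58, SE 0.096, adjusted p = 0.00048). Its paralog SSE2 was at 44.1, 38.0 and 37.9 CPM against 65.3, 65.4 and 63.9 CPM (0.70, SE 0.077, adjusted p = 3.9e-05). Neither overlapped between groups. FES1 fell by 0.65 and SNL1, which is anchored in the endoplasmic reticulum membrane, fell by 0.72 on the log2 scale. With total counts only SSE1, FES1 and SNL1 stood between −0.21 and −0.06 and did not pass the test.

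The J-proteins changed less. SIS1, the class B J-protein needed for growth, was at 249.7, 237 and 228 CPM in young and 175, 177 and 179 CPM in aged libraries, and it fell by 0.43 on the log2 scale (SE 0.073, adjusted p = 0.00056), but stood at 0.08 with total counts only. YDJ1, the major class A J-protein, overlapped between groups at 273 to 339 CPM and 262 to 289.9 CPM, with an interval of the log2 fold change from −0.36 to 0.07. APJ1, at 24.9 to 29.3 CPM in young and 21.2 to 23.6 CPM in aged libraries, fell by 0.24 (adjusted p = 0.031), and this call was lost when any library but young replicate 1 was left out (adjusted p 0.051 to 0.13). With total counts only YDJ1 and APJ1 stood at 0.36 and 0.27.

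Hsp90 is encoded by HSC82, expressed at a high level in growing cells, and by the stress-inducible HSP82. HSC82 was at 2051, 1765 and 1985 CPM in young and 1103, 1101 and 1214 CPM in aged libraries. It was the most abundant of the 45 in counts, its groups did not overlap, and it fell by 0.76 on the log2 scale (SE 0.099, adjusted p = 9.8e-05). HSP82 was at 384, 316 and 339.8 CPM against 334, 360.2 and 367 CPM. These values overlapped, with a log2 fold change of 0.03 and an interval from −0.18 to 0.23. Summed Hsp90 mRNA was 2081 to 2435 CPM in young and 1437 to 1581 CPM in aged libraries, but as a share of all counts it overlapped, at 0.159% to 0.218% and 0.167% to 0.196%. With total counts only HSC82 stood at −0.25 (adjusted p = 0.064) and HSP82 at 0.53.

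Of 8 Hsp90 co-chaperones 5 fell, SBA1 rose, and AHA1 and CNS1 did not pass the test. Of all features 30.8% fell and 32.7% rose. With total counts only, 2 of the 8 were lower and 3 higher (8.32% and 68.7% of all features). HCH1 and AHA1 are related and both stimulate the ATPase of Hsp90. The difference between their changes was not tested. HCH1 was at 364, 403 and 397 CPM in young and 171, 186 and 169.9 CPM in aged libraries, a fall of 1.15 on the log2 scale (SE 0.082, adjusted p = 2.5e-06), and AHA1 at 90.1 to 98.3 CPM and 83.7 to 91.1 CPM, with an interval from −0.26 to 0.05. With the GC offset AHA1 was called lower as well, at −0.33, and with total counts only it stood at 0.41. STI1, which links Hsp70 to Hsp90, was at 221, 229 and 234 CPM against 115, 124 and 130.1 CPM and fell by 0.89 (SE 0.077, adjusted p = 9.2e-06). HCH1 and STI1 stayed called as lower with total counts only, at −0.63 and −0.38.

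CDC37, the adaptor for kinase clients, fell by 0.58, CPR6, a cyclophilin, fell by 0.72 and the related CPR7 fell by 0.38 on the log2 scale. None of these 3 overlapped between groups, and with total counts only they stood at −0.06, −0.20 and 0.13, without passing the test. SBA1, the p23 homolog that slows the Hsp90 cycle, was at 333, 271 and 309 CPM in young and 364, 366 and 382 CPM in aged libraries. Its log2 fold change was 0.28 (SE 0.091, adjusted p = 0.019), and the call was lost without aged replicate 1 (adjusted p = 0.057), without aged replicate 3 (0.065) and with the GC offset (log2 fold change 0.15, adjusted p = 0.17). CNS1 had a log2 fold change of 0.03 with an interval from −0.15 to 0.22, but stood at 0.54, called higher, with total counts only.

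Ratios of paralogs within a library do not depend on scaling. The HSP82/HSC82 ratio was 0.187, 0.179 and 0.171 in young and 0.303, 0.327 and 0.302 in aged libraries, 1.73-fold higher. The SSA1/SSA2 ratio was 0.423, 0.409 and 0.410 against 0.938, 0.95 and 0.939, 2.28-fold higher. In both pairs the aged libraries lay apart from the young ones by far more than the spread within a group. The SSA4/SSA3 ratio rose from 1.90 to 2.37 to 5.10 to 5.17, 2.34-fold, and the SSE2/SSE1 ratio from 0.0367 to 0.0512 to 0.102 to 0.107, 2.41-fold. The SSB1/SSB2 ratio went from 0.995 to 1.03 in young to 0.903 to 0.917 in aged libraries, a factor of 0.894. Each of the 5 ratios was separated between groups, with an exact two-sided permutation p of 0.1 (0.1 after Benjamini-Hochberg adjustment over the 5), the smallest that 3 against 3 libraries allow.

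**Figure D3:**
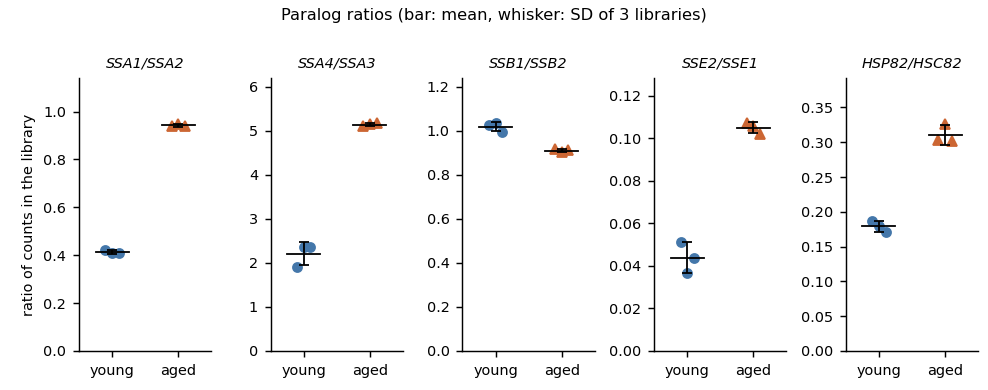
Ratio of the counts of 5 paralog pairs in each library, young (circles) and aged (triangles), each on its own axis from 0. Bars are means and whiskers SD over 3 libraries. SSA1/SSA2, SSA4/SSA3, SSE2/SSE1 and HSP82/HSC82 are higher and SSB1/SSB2 is slightly lower in aged libraries, with no overlap in any pair.

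HSP26 showed the steepest change of the 45. This small heat shock protein, kept low in growing cells, was at 9.85, 14.3 and 11.8 CPM in young and 272, 287 and 278 CPM in aged libraries. The log2 fold change was 4.54 (SE 0.13, adjusted p = 2.7e-09), or 23.3-fold, the 11th largest rise among the 6755 features. HSP42, the small heat shock protein that forms deposits also in unstressed cells, was at 43.9, 38.1 and 42.0 CPM against 121, 126 and 136 CPM, a log2 fold change of 1.63 (SE 0.080, adjusted p = 1.6e-07). Per kilobase of coding sequence, HSP26 was the 42nd of the 45 members in young cells and the 7th in aged cells. HSP42 was above HSP26 in all young libraries and below it in all aged ones, on either scale.

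HSP104 was at 262, 244 and 226 CPM in young and 392, 401 and 400.3 CPM in aged libraries (log2 fold change 0.70, SE 0.082, adjusted p = 5.3e-05). The sorting factors, which steer misfolded proteins to deposits and are paralogs, went in opposite directions. BTN2 was at 51.7, 44.3 and 42.2 CPM against 69.4, 73.6 and 72.2 CPM (0.64, SE 0.084, adjusted p = 0.00011), and CUR1 at 55.9, 62.2 and 58.7 CPM against 33.0, 35.3 and 37.0 CPM (−0.75, SE 0.075, adjusted p = 2.2e-05). HSP104, BTN2, CUR1 and both small heat shock protein genes kept their call under every setting tried. HSF1 itself was at 26.8 to 29.0 CPM in young and 33.1 to 35.6 CPM in aged libraries, a log2 fold change of 0.31 (SE 0.072, adjusted p = 0.0033).

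Of the 8 subunits of CCT, 7 were higher in aged cells, with log2 fold changes from 0.40 (CCT7) to 0.63 (CCT3) and adjusted p from 0.0005 to 0.0067. TCP1, for example, was at 178, 134 and 150.4 CPM in young and 246, 213 and 233 CPM in aged libraries (0.58, SE 0.11). CCT3 was at 179.9, 123 and 147 CPM against 234, 228 and 235 CPM (0.63, SE 0.12). All aged libraries lay above all young ones in the 7, and young replicate 2 was the lowest in each, though barely so in CCT4. Without young replicate 2 the median of the 8 was 0.39, and 7 were still higher. CCT5 alone went the other way, at 327, 341 and 332 CPM in young and 289, 309.7 and 304 CPM in aged libraries.

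CCT5 did not pass the test (log2 fold change −0.15, SE 0.075, adjusted p = 0.11), although its groups did not overlap, and it was called lower by DESeq2 (Wald test, adjusted p = 0.032), with the GC offset and with a length offset, and higher, at 0.37, with total counts only. The 8 subunits sit once in each ring. Per kilobase, CCT5 was the highest subunit in every library, at 194 to 202 CPM per kb in young and 171 to 183 in aged libraries, where the median of the other 7 was 72.4 to 82.4 and 103 to 109.8. The ratio of CCT5 to that median was 2.35, 2.79 and 2.56 in young and 1.66, 1.75 and 1.64 in aged libraries. CCT5 thus lay closer to the others in aged cells, with highest over lowest of the 8 at 2.45 to 3.54 in young and 1.93 to 2.06 in aged libraries. The other 7 did not draw together. They spanned 78.9 to 112.1, 57.0 to 80.0 and 66.5 to 91.8 CPM per kb in young libraries 1 to 3. In aged libraries 1 to 3 they spanned 88.6 to 146.2, 89.1 to 142.0 and 92.7 to 146.1.

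All 6 subunits of prefoldin fell. GIM4 was at 786, 1184 and 805 CPM in young and 395, 418 and 337 CPM in aged libraries, a fall of 1.27 on the log2 scale (SE 0.16, adjusted p = 7.5e-05). YKE2 was at 533, 788 and 637 CPM against 261, 304 and 232 CPM (−1.30, SE 0.15, adjusted p = 4.5e-05), and PFD1 at 382, 602 and 435 CPM against 201, 228 and 179.5 CPM (−1.22, SE 0.16, adjusted p = 0.0001). Young replicate 2 was the highest library for all 3, and no group overlapped. GIM3 fell by 0.82, GIM5 fell by 0.98 and PAC10 fell by 0.42 on the log2 scale. With total counts only, 5 stayed lower, and PAC10 stood at 0.10. With the GC offset all 6 stayed lower, with a median of −0.93, but the sizes changed. GIM4, PFD1 and YKE2 then stood at −0.73, −0.82 and −1.22, and PAC10, GIM3 and GIM5 at −0.68, −1.03 and −1.08.

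Prefoldin holds 6 different subunits, 4 of β type (YKE2, GIM3, GIM4, PFD1) and 2 of α type (PAC10, GIM5). The mRNAs of the β type stood at 1433 to 2754 CPM per kb in young cells, those of PAC10 and GIM5 at 64 and 166. The same order of types held in all 6 libraries, with GIM4 highest and PAC10 lowest, 37.1 to 51.0 times apart in young and 21.3 to 25.8 times apart in aged libraries. Among the 792 tested coding genes as long as these (330 to 600 bases), whose median was 150 CPM per kb in young cells, the β type genes stood above 85.9% to 90.7% and PAC10 above 37.1%. Levels per kilobase of coding sequence leave out untranslated ends, which weigh more in short genes.

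**Figure D4:**
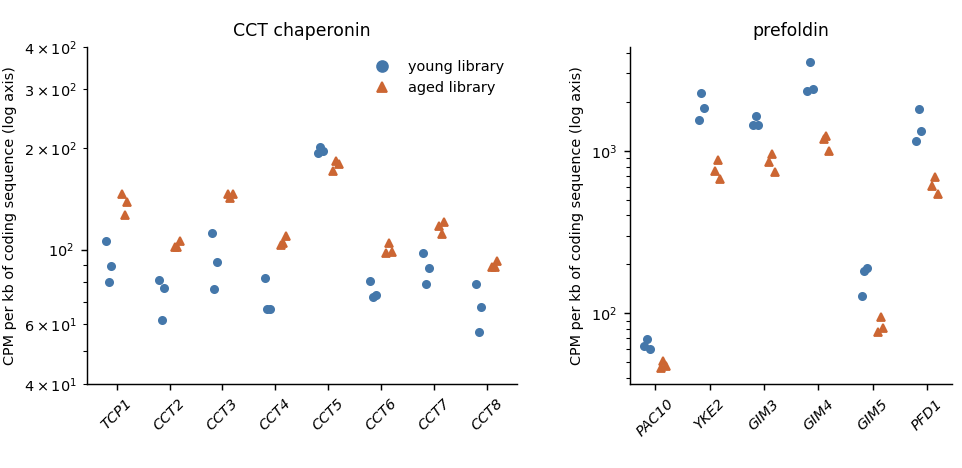
CPM per kilobase of coding sequence of the 8 CCT subunits (left) and the 6 prefoldin subunits (right) in each young (circles) and aged (triangles) library, on log axes of different range. CCT5 is above the other CCT subunits and is the only one with aged libraries under the young ones. All prefoldin subunits are lower in aged libraries, with PAC10 and GIM5 far under the others.

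Coding length moved with the fold change over all genes and differed between the 2 complexes. The Spearman correlation of log2 fold change and coding length was 0.225 over 5913 tested coding genes and 0.467 over the 45 members, which share libraries and are not independent. Prefoldin genes are short, and the 792 genes of 330 to 600 bases had a median of −0.33, with 18.4% higher and 53.3% lower, while the prefoldin median was −1.10. CCT genes span 1584 to 1707 bases, and the 248 genes of that length had a median of 0.20, with 49.6% higher and 17.7% lower, while the CCT median was 0.45. With an offset for length in the fit, the prefoldin median was −0.84 with all 6 lower, and the CCT median 0.28 with 7 higher and CCT5 lower. The part of RNA quality and fragment recovery in the relation to length was not tested.

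**Figure D5:**
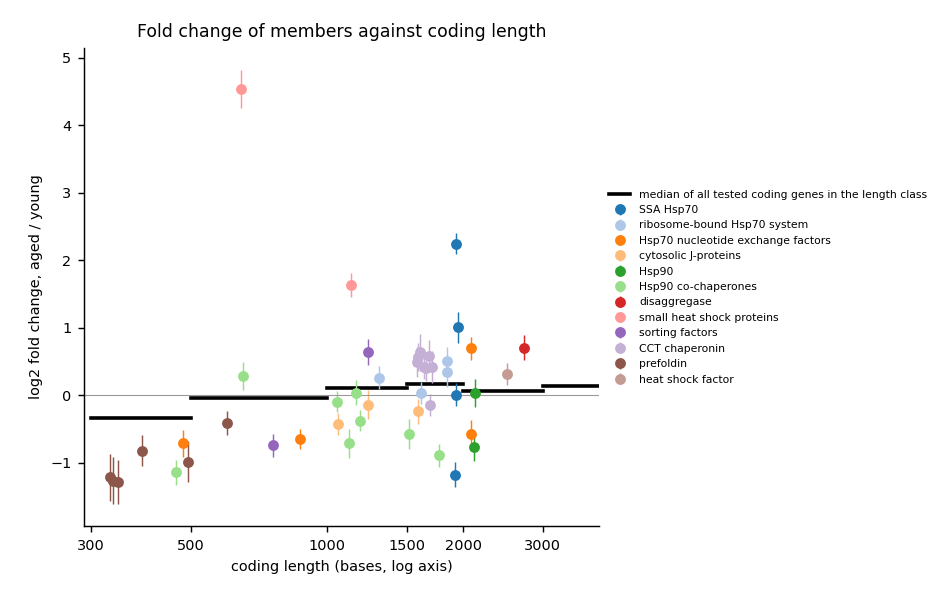
Log2 fold change (aged over young) of the 45 members against coding length in bases (log axis), coloured by group, with 95% intervals. Black bars are medians of all tested coding genes in 6 length classes, drawn within the plotted range. Prefoldin subunits lie under and most CCT subunits above the bar of their length class, and HSP26, SSA4 and HSP42 far above.

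Chaperones outside the 45 were mixed as well, where 32.7% of all features rose and 30.8% fell. Of 13 other cytosolic J-proteins and co-chaperones 3 rose and 7 fell, XDJ1 rising most (log2 fold change 0.38) and TAH1, part of the R2TP complex that works with Hsp90, falling most (−0.96). With total counts only, DJP1, JJJ1 and CPR1, 3 of the 7 that fell, stood above 0, at 0.30, 0.05 and 0.18. Of 8 mitochondrial chaperones HSP78, the mitochondrial relative of Hsp104, rose (0.49) and 4 fell, among them HSP10, the lid of the Hsp60 chaperonin (−1.42, SE 0.15, adjusted p = 2.6e-05). SSC1 and MDJ1 of these 4 stood at 0.24 and 0.15 with total counts only. Of 6 chaperones of the endoplasmic reticulum 3 rose, SCJ1 most (0.46), and 0 fell. Of 6 other heat-inducible genes 4 rose and MBF1, a coactivator, fell by 0.94 on the log2 scale. HSP30, a plasma membrane protein that restrains the proton pump, rose from 11.4, 9.98 and 10.7 CPM to 92.1, 88.2 and 82.0 CPM (3.03, SE 0.084, adjusted p = 2.6e-09).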

How the data were processed

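The authors deposited estimated counts per gene, not normalized, 1 column for each of the 6 libraries, with 0 columns unassigned. By library, 54.3% to 59.5% of values were not whole numbers. The labels list bcl2fastq, cutadapt 2.6, STAR 2.7.6a, featureCounts, Subread 1.6.2 and build R64. Strand setting and handling of multimapped reads are not given in the sources used here. The kit was directional and reads were 150 bases, paired.

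Counts were rounded, filtered with filterByExpr (minimum 10), scaled by TMM (factors 0.765 to 1.24) and fitted with edgeR 4.0.16 (R 4.3.3), quasi-likelihood F-test, two-sided, group as the only term. Benjamini-Hochberg adjustment ran over all 6755 features. Levels are TMM-scaled CPM, n = 3 per group, and intervals cover 95%. A paralog ratio was tested by an exact permutation test. The 45 members, the gene lists, motifs and tests were chosen with earlier results of these data known. All 45 members were named, and of each other list the called gene with the largest rise and fall. EGD2, BTT1, DJP1, JJJ1, CPR1, SSC1 and MDJ1 were named after their values were seen. A further list is not reported here. Gene positions and sequences come from RefSeq R64. No member overlaps another RefSeq gene, but overlaps with features outside that annotation were not examined.

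Batch labels equal replicate numbers, so they pair the samples. Deviations from the group means correlated at 0.126, 0.334 and 0.122 for numbers 1 to 3 over 6755 genes. Libraries of unlike number correlated at −0.297 to 0.202, the highest being young 1 with aged 3. Only the value for number 2 stood above all of these. Alternatives were other scalings, filters and tools (DESeq2 1.42.0, limma 3.58.1), a replicate block, loess offsets (span 0.5) on GC content and, chosen after seeing the data, on coding length, a threshold of 0.01, and leaving out each library.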

Additional observations from a re-analysis of the deposited data

How the results depend on the processing

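Of the 38 members called, 24 (15 higher, 9 lower) kept their call under all 18 settings. No such share is given for all features, so whether the members were unusually stable was not tested. With total counts only, 27 members were higher and 9 lower, and the log2 fold changes of YDJ1 (0.36), SIS1 (0.083), APJ1 (0.27), CPR7 (0.13), AHA1 (0.41), CCT5 (0.37) and PAC10 (0.096) had the opposite sign. Under the other settings 15 to 19 members were higher and 18 to 23 lower. Of the 5925 to 7082 features tested, those settings called 1719 to 2509 higher and 1760 to 2229 lower. At a threshold of 0.01 the counts were 16 and 18 members, without a share of all features to set beside them. SSA1 fell by 0.22 with the GC offset, alone (adjusted p = 0.033) or with the replicate block (0.014), and SSZ1 fell by 0.15 with the length offset and replicate block (adjusted p = 0.048). The cause of these changes was not tested. The paired fit with a replicate block called 19 higher and 19 lower and changed no member's call. Leaving out 1 library at a time gave 17 to 19 members higher and 18 to 19 lower, the calls lost being ZUO1, SBA1 and APJ1. Those fits called 1809 to 2317 of 6765 to 6788 features higher and 1760 to 2206 lower. YDJ1, AHA1 and CCT5 were called lower with either offset, and ZUO1 lost its call with either (0.02 and 0.08). SSB1 lost it with either (0.13 and 0.18) but not with the length offset and block (0.18, adjusted p = 0.018). CCT6 (0.10) and SBA1 (0.15) lost it with the GC offset. The offsets cover 87.7% of tested features. Depth was not varied. With 3 libraries a group, the exact permutation test of a paralog ratio cannot go below p = 0.1, or 0.25 when paired by replicate.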
